A study of Mus musculus with 9 samples.

Results

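Chemokine expression in the mouse brain was followed through 10 transcripts, Ccl2, Ccl3, Ccl4, Ccl6, Ccl9, Ccl12, Cxcl10, Cxcl12, Cxcl16 and Cx3cl1. They were taken by gene symbol from the deposited count table, whatever their counts, out of 49315 genes of which 35028 had at least 1 count. All 10 had counts. With edgeR's filter on low counts, 7 of the 10 were tested among 18492 genes. Ccl2, Ccl4 and Ccl12 were too scarce for the filter and were compared in a second fit over all 35028 genes with a count.

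Chemokines are small secreted or membrane-anchored proteins that guide leukocytes and other cells through G protein-coupled receptors, and are classed as CC, CXC or CX3C by the spacing of their first cysteines. In the brain, Cx3cl1 (fractalkine) is made mainly by neurons and its receptor Cx3cr1 is carried by microglia, while Cxcl12 is made by vascular, meningeal and some neuronal cells and acts through Cxcr4 and the scavenging receptor Ackr3. The inflammatory CC and CXC chemokines are made at low levels in the healthy brain and are induced in microglia, macrophages, astrocytes and endothelium by NF-kB and interferon signalling.

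The brains came from untreated wild-type male C57BL/6J mice, 5 young mice of 3 months (3 or 4 months by the study's methods) and 4 old mice of 33 months, each brain being 1 library. Polyadenylated RNA was sequenced with ERCC spike-in, and the deposited counts summed to between 14229259 and 21150439 per library, with medians of 18219839 in young and 17689652 in old mice. A count of 3 corresponded to between 0.145 and 0.212 CPM (counts relative to library size, scaled with TMM factors), depending on the library. Old replicate 2 was not analysed here. The label of brain tissue matched the markers, since 7 neuronal markers summed to 5445 ± 167 CPM (SD, n = 5) at 3 months and 5220 ± 74.1 CPM (SD, n = 4) at 33 months, and Mbp, a myelin gene of oligodendrocytes, averaged 2972 and 3560 CPM. In such bulk tissue, fewer cells of a type and less RNA per cell cannot be told apart.

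A pair of libraries stood apart from the others of their age. In young replicate 4, 7 markers of activated microglia summed to 102 CPM. The other young mice ranged from 42.2 to 48.6 CPM and the old mice from 86.4 to 108 CPM. In old replicate 4, 8 markers of monocytes and neutrophils summed to 94.9 CPM, while the other old mice ranged from 3.67 to 7.01 CPM and the young mice from 1.15 to 2.56 CPM. The chemokine results are therefore given with and without young replicate 4, and those that change without old replicate 4 are named.

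Cxcl10 was higher in old brain with all 9 mice, Ccl12 was higher in the fit without the filter, and Cx3cl1, by far the most abundant member, was slightly lower. Ccl3, Ccl4, Ccl6 and Cxcl16 were higher in every old mouse than in each of 4 young mice, but young replicate 4 had old-like or higher values. Calls required an adjusted p (Benjamini-Hochberg) under 0.05 together with a log2 fold change beyond 0.58 in either direction, from edgeR's quasi-likelihood test. Of the 7 members tested, 1 (Cxcl10) was called higher in old brain, beside 2.13% of the 18492 genes tested. Cxcl10 passed the filter through the old mice, since young replicate 4 alone among the young mice had over 10 counts. The count beside the share is therefore descriptive. Cxcl10 was called without the filter too. Without young replicate 4, 4 of 7 were called higher, beside 2.83% of all genes. The added calls (Ccl3, Ccl6 and Cxcl16) depend on leaving out the young mouse with the highest values of these genes. No young mouse in the fit without young replicate 4 had 10 counts of Cxcl10 or Ccl3, which passed the filter through the old mice. Both were called without the filter and young replicate 4 too. In the fit without the filter, 3 of 10 were called higher over all mice (1.69% of all genes) and 6 of 10 without young replicate 4 (2.07%). The median log2 fold change of the 7 tested members was 0.71, that of all tested genes was -9.2e-05, and without young replicate 4 the members' median was 1.04. These medians too are descriptive, since they include members that passed the filter through the old mice. Without the filter the median of the 10 members was 0.86 (all genes 0.0029). Without the filter and young replicate 4 it was 1.55 (all genes 0.00063). The ages did not overlap in CPM for 4 members. Of the 10, 3 (Ccl2, Ccl12 and Cxcl10) lay above the young mice in every old mouse, beside 3.95% of genes with a count, and 1 (Cx3cl1) lay below, beside 3.41%. Setting young replicate 4 aside, 7 of 10 lay above, beside 5.34%. Young replicate 4 was the highest of all 9 mice for 4 members (Ccl3, Ccl4, Ccl6 and Cx3cl1), beside 9.67% of genes with a count.

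**Figure D1:**
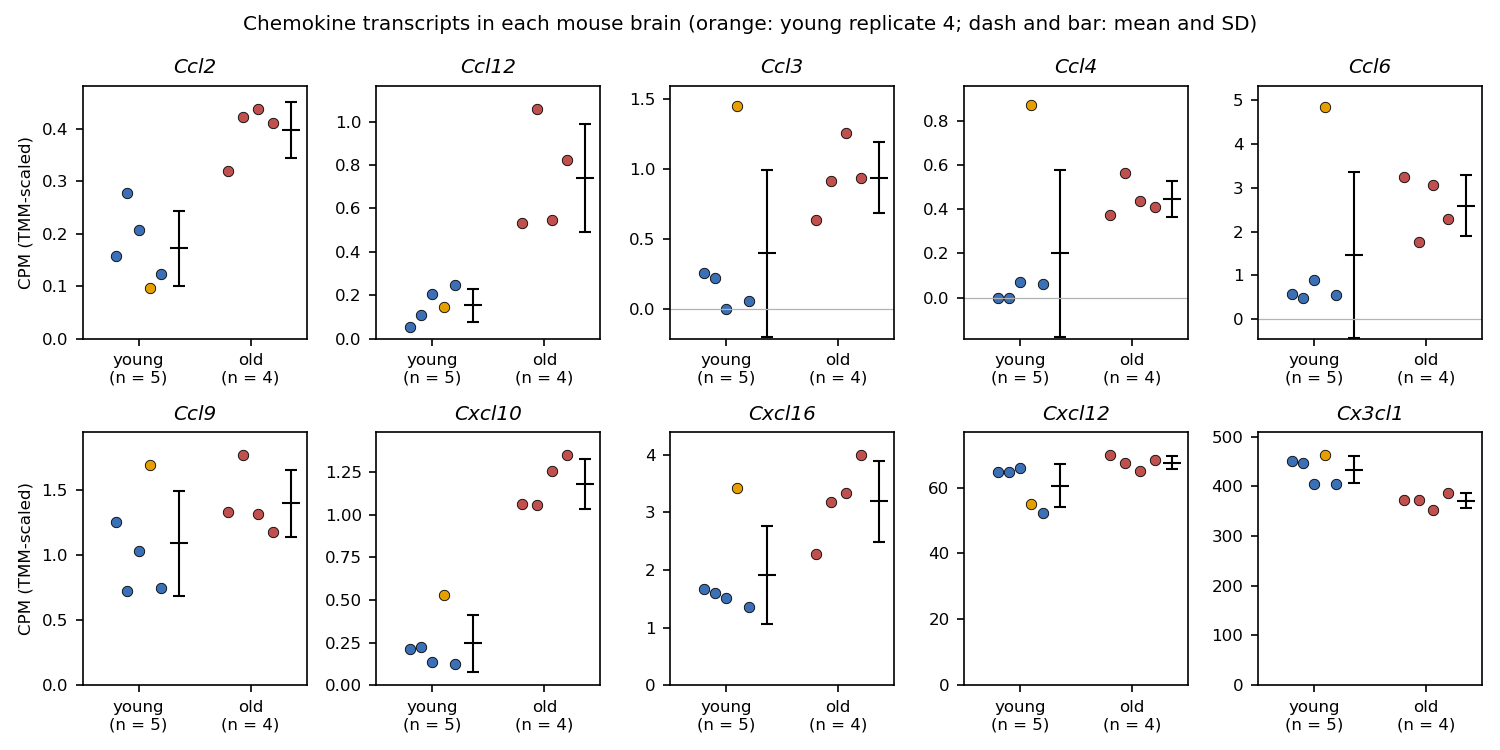
CPM of the 10 chemokine transcripts in each mouse, with 5 young (blue, young replicate 4 in orange) and 4 old mice (red), and the mean and SD of each age beside the points. Young replicate 4 lies above all 4 old mice for Ccl3, Ccl4 and Ccl6 and below the old mice for Ccl2, Ccl12 and Cxcl10.

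Cxcl10 encodes an interferon-induced ligand that recruits activated T cells and NK cells through Cxcr3. Its raw counts were 20, 15, 23 and 23 in old replicates 1, 3, 4 and 5, and 4, 4, 2, 11 and 2 in young replicates 1 to 5. Every old mouse was above every young mouse, and young replicate 4 was the highest of the young mice. Young brain held 0.245 ± 0.166 CPM (SD, n = 5) and old brain 1.18 ± 0.146 CPM (SD, n = 4). The log2 fold change was 2.17 (standard error 0.35, edgeR adjusted p = 0.00076). Without young replicate 4 the log2 fold change was 2.70 (standard error 0.34, edgeR adjusted p = 6.7e-05). Leaving out each mouse in turn gave log2 fold changes from 2.02 to 2.70 with edgeR adjusted p no higher than 0.0034. DESeq2's Wald test, which the study used, gave Cxcl10 a log2 fold change of 2.21 and an unadjusted p of 1.3e-06, and its filter on low counts left the adjusted p undefined. The gene lies on chromosome 5, 92346638 to 92348889 (GRCm38, minus strand), and its exons overlap those of Art3 on the opposite strand. Whether the counting used strand is not given for these libraries, so reads of the 2 genes may be confused. Art3 itself went from 3.68 ± 0.718 CPM at 3 months to 4.76 ± 0.932 CPM at 33 months, with a log2 fold change of 0.37 (edgeR adjusted p = 0.17).

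The Cxcl10 promoter is shown because its motifs are those of interferon and NF-kB signalling, and the promoters of Ccl12 and Ccl6 are shown beside it as members of the CC class that had none of the motifs searched. RefSeq promoters of GRCm38.p6 matched 7 of the 10 members (Ccl3, Ccl6, Ccl9, Ccl12, Cxcl10, Cxcl12 and Cx3cl1), and the 250 bases before the start were searched on both strands. Each is written from 5′ to 3′ on the strand of its gene, and capitals mark the matches. Cxcl10 lies at chr5:92348890-92349139 (minus strand), Ccl12 at chr11:82101595-82101844 (plus strand) and Ccl6 at chr11:83593088-83593337 (minus strand).
Cxcl10: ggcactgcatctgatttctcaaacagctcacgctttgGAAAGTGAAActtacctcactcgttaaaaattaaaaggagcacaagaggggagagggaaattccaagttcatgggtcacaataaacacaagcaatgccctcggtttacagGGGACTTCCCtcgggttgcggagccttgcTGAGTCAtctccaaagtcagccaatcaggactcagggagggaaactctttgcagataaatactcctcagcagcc
Ccl12: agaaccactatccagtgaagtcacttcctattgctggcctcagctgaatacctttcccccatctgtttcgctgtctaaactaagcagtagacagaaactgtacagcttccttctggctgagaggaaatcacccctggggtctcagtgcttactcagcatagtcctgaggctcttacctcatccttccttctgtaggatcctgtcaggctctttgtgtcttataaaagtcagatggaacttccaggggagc
Ccl6: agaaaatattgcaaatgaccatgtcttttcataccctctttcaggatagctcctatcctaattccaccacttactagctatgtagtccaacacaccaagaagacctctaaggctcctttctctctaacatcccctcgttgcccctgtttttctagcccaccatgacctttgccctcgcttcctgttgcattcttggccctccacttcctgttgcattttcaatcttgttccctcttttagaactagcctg
In the Cxcl10 promoter, GAAAGTGAAA, a match to the core of the interferon-stimulated response element (GAAA, 2 bases of any kind and GAAA), began 213 bases before the start. GGGACTTCCC, a match to the NF-kB motif (GGGA, any base, TT, any base and CC), began 103 bases before the start, and TGAGTCA, a match to the AP-1 motif TGANTCA, 74 bases before it. The matches did not overlap. Among 32851 promoters of the same length, 2.98% held the response element core, 0.98% the NF-kB motif and 6.75% the AP-1 motif. Of the other members, Ccl9 held an AP-1 match (TGAATCA, 53 bases before its start), and no member held GAGGAAGT, a PU.1 motif found in 2.44% of promoters. These matches describe letters, and no binding was measured.

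Ccl2 and Ccl12 encode monocyte chemoattractants that act on Ccr2, and their genes lie 64.4 kb apart on chromosome 11 (Ccl2 at 82035571 to 82037453, Ccl12 at 82101845 to 82103400, GRCm38, both plus strand). Ccl12 had 10, 15, 10 and 14 counts in old replicates 1, 3, 4 and 5, and 1, 2, 3, 3 and 4 counts in young replicates 1 to 5. The ages did not overlap, and young replicate 4 lay within the other young mice. Ccl12 rose from 0.152 ± 0.0769 CPM (SD, n = 5) to 0.739 ± 0.251 CPM (SD, n = 4). In the fit without the filter its log2 fold change was 2.24 (standard error 0.46, edgeR adjusted p = 6.3e-05). Without young replicate 4 it was 2.23 (edgeR adjusted p = 0.00026). On the log2(TPM + 1) scale (TPM measures the level of a transcript per unit of its length) the difference missed the threshold (limma, adjusted p = 0.072). Ccl2 had 6, 6, 8 and 7 counts in old replicates 1, 3, 4 and 5, and 3, 5, 3, 2 and 2 counts in young replicates 1 to 5. No young mouse reached the lowest old mouse, and young replicate 4 was the lowest of all 9 in CPM. At this depth the difference was not significant (log2 fold change 1.18, standard error 0.52, edgeR adjusted p = 0.18 without the filter, and 0.33 without young replicate 4). Of the 7 members in both fits, the fit without the filter gave a smaller adjusted p than the filtered fit for Cxcl10, Cxcl12, Cxcl16 and Cx3cl1 (for Cx3cl1 6.0e-07 against 0.0043, edgeR) and a larger one for Ccl3, Ccl6 and Ccl9.

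Ccl3, Ccl4, Ccl6 and Ccl9 also form a cluster on chromosome 11, in the order Ccl9, Ccl6, Ccl3 and Ccl4, with gaps of 9.246, 54.8 and 13.2 kb. Ccl3 and Ccl4 are macrophage inflammatory proteins, and Ccl3, Ccl6 and Ccl9 bind Ccr1. Ccl4, Ccl3 and Ccl6 were the members with the highest ratios of the CPM of young replicate 4 to the mean of the other young mice (26.7, 10.6 and 7.66). Neighbours in this cluster are related in sequence, and unique reads alone were counted. How many reads fit several of these genes was not measured.

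Ccl3 (83647844 to 83649355, minus strand) had 12, 13, 23 and 16 counts in old replicates 1, 3, 4 and 5, and 5, 4, 0, 30 and 1 counts in young replicates 1 to 5. Young replicate 4 was above every old mouse and the other 4 young mice were below. Over all mice the log2 fold change was 1.08 (standard error 0.75, edgeR adjusted p = 0.42), and without young replicate 4 it was 2.62 (standard error 0.49, edgeR adjusted p = 0.0019). Ccl4 (83662584 to 83664683, plus strand) had 7, 8, 8 and 7 counts in old replicates 1, 3, 4 and 5, and 0, 0, 1, 18 and 1 counts in young replicates 1 to 5. It showed the same order as Ccl3. In the fit without the filter its log2 fold change was 0.97 (standard error 0.49, edgeR adjusted p = 0.28), and 3.60 without young replicate 4 (standard error 0.77, edgeR adjusted p = 0.00015).

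Ccl6 (83587882 to 83593087, minus strand), a chemokine of macrophages and other myeloid cells, had 61, 25, 56 and 39 counts in old replicates 1, 3, 4 and 5, and 11, 9, 13, 100 and 9 counts in young replicates 1 to 5. Young replicate 4 was the highest of all 9 mice, at 4.83 CPM, while old mice ranged from 1.76 to 3.24 CPM and the other young mice from 0.498 to 0.893 CPM. The log2 fold change was 0.76 over all mice (standard error 0.73, edgeR adjusted p = 0.58) and 2.06 without young replicate 4 (standard error 0.26, edgeR adjusted p = 7.2e-05). Its neighbour Ccl9 (83572919 to 83578636, minus strand) had 25, 25, 24 and 20 counts in old replicates 1, 3, 4 and 5, and 24, 13, 15, 35 and 12 counts in young replicates 1 to 5. The ages of Ccl9 overlapped with and without young replicate 4. Its log2 fold change was 0.32 (standard error 0.26, edgeR adjusted p = 0.48) over all mice and 0.55 (standard error 0.25, edgeR adjusted p = 0.19) without that mouse.

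**Figure D2:**
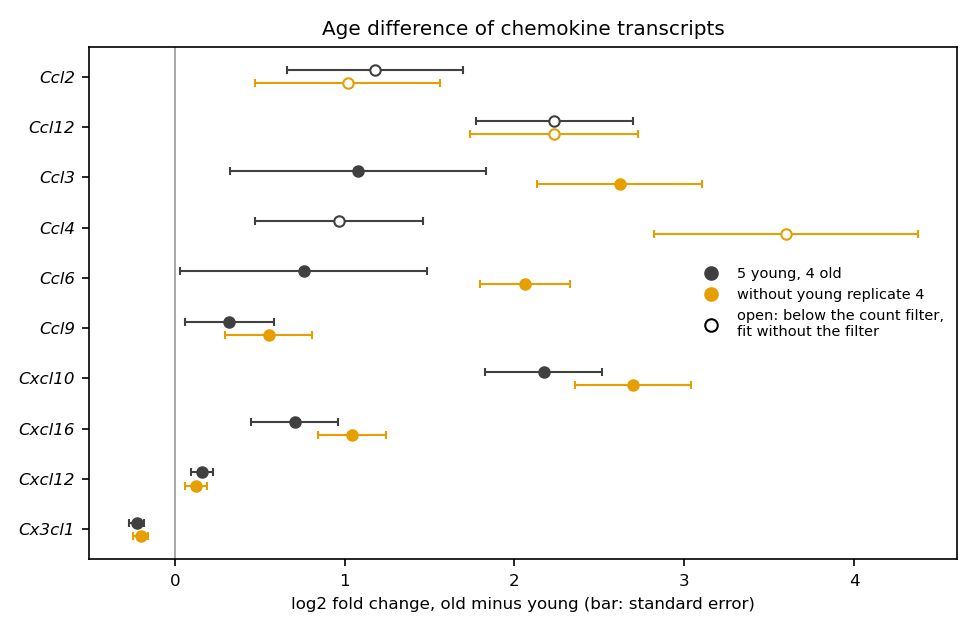
Log2 fold change of each member, old minus young, with its standard error as a bar, over 5 young and 4 old mice (dark) and without young replicate 4 (orange), open symbols being the 3 members compared without the filter. Ccl3, Ccl4 and Ccl6 move from 1.08, 0.97 and 0.76 to 2.62, 3.60 and 2.06, while Ccl12 goes from 2.24 to 2.23, Cxcl12 from 0.16 to 0.13 and Cx3cl1 from -0.23 to -0.20.

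Cxcl16 encodes a membrane-anchored chemokine of macrophages, endothelium and glia whose receptor is Cxcr6. Its counts were 43, 45, 61 and 68 in old replicates 1, 3, 4 and 5, and 32, 29, 22, 71 and 22 in young replicates 1 to 5. In CPM the old mice ranged from 2.28 to 3.99 and the young mice from 1.36 to 1.67, except young replicate 4 at 3.43. The log2 fold change of 0.71 (standard error 0.26) was not significant over all mice (edgeR adjusted p = 0.094) and was 1.04 without young replicate 4 (standard error 0.20, edgeR adjusted p = 0.0023). In the fit without the filter it was called over all mice too (log2 fold change 0.69, edgeR adjusted p = 0.0061). The gene (chromosome 11, 70453983 to 70459984, minus strand) overlaps exons of Zmynd15 on the opposite strand, which went from 1.06 ± 0.195 CPM at 3 months to 1.20 ± 0.192 CPM at 33 months (edgeR adjusted p = 0.67).

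Cx3cl1 and Cxcl12, the constitutive members, differed little between the ages. Cx3cl1 (chromosome 8, 94772009 to 94782427, plus strand) had 7031, 5290, 6427 and 6600 counts in old replicates 1, 3, 4 and 5, and 8640, 8073, 5899, 9574 and 6546 counts in young replicates 1 to 5. After library scaling, the 4 old mice ranged from 352 to 387 CPM and the 5 young mice from 404 to 462 CPM, without overlap. It fell from 434 ± 27.3 CPM (SD, n = 5) to 371 ± 14.8 CPM (SD, n = 4). The log2 fold change of -0.23 (standard error 0.046, edgeR adjusted p = 0.0043) did not pass the fold threshold. Lower values at an adjusted p under 0.05 were found for 4.89% of all tested genes. Without young replicate 4, the highest of the 9 mice, it was -0.20 (edgeR adjusted p = 0.0079). On the log2(TPM + 1) scale the difference was -0.39 (limma, adjusted p = 0.25), and the ages overlapped there, with 195 to 241 TPM in old and 231 to 352 TPM in young mice. Cxcl12 (chromosome 6, 117168535 to 117181367, plus strand) had 1313, 956, 1186 and 1163 counts in old replicates 1, 3, 4 and 5, and 1241, 1170, 960, 1140 and 844 counts in young replicates 1 to 5. Scaled to library size this was 67.6 ± 2.03 CPM (SD, n = 4) at 33 months and 60.6 ± 6.45 CPM (SD, n = 5) at 3 months, with overlap between the ages. Its log2 fold change of 0.16 (standard error 0.065) was not significant (edgeR adjusted p = 0.13), and on the log2(TPM + 1) scale, where all tested genes shifted by a median of -0.14, it was -0.0019. In the fit without the filter, Cxcl12 had an adjusted p of 0.029 (edgeR).

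Per transcript length, Cx3cl1 exceeded all other members in every mouse. Its mean was 289 TPM in young and 219 TPM in old brain, followed by Cxcl12 at 19.7 and 19.2 TPM. These 2 were separated from each other and from the other 8 in every mouse. The other 8 had means between 0.27 and 1.97 TPM in young and between 0.804 and 3.38 TPM in old brain, and many neighbours in this order overlapped. Over all 5 young mice Ccl6 (1.97 TPM) and Cxcl16 (1.61 TPM) led them, and Cxcl10 (0.27 TPM) was last. Without young replicate 4, Cxcl16 (1.39 TPM) led, Ccl6 had 0.993 TPM and Ccl4 (0.141 TPM) was last, after Cxcl10 (0.209 TPM). In old brain Ccl6 (3.38 TPM) and Ccl12 (3.14 TPM) led and Ccl2 (0.804 TPM) was last. Ccl12 had rank 4 of all 10 in old brain and rank 7 in young brain, or rank 6 without young replicate 4. Cx3cl1 made up between 91.1% and 92.6% of the summed TPM of the 10 members in young replicates 1, 2, 3 and 5, 88.8% in young replicate 4 and between 85.3% and 86.6% in old mice.

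**Figure D3:**
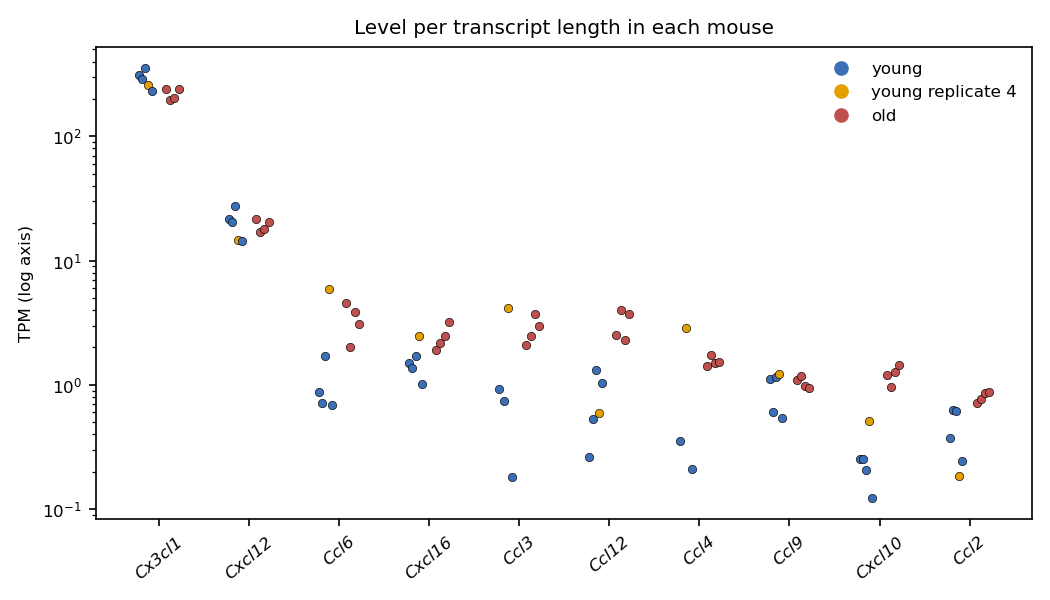
TPM of each member in each mouse on a log axis, members ordered by their mean over all mice, with young mice in blue, young replicate 4 in orange and old mice in red. Cx3cl1 lies between 195 and 352 TPM and Cxcl12 between 14.3 and 27.5 TPM, and 3 values of 0 (Ccl3 in young replicate 3, Ccl4 in young replicates 1 and 2) cannot be drawn.

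Receptors were examined from a list of 18 signalling chemokine receptors. Of these, 6 passed the filter and 1 of 6 was called higher in old brain, beside 2.13% of all genes tested, and Ccr8 had no counts. Cxcr4, the receptor of Cxcl12, had 36, 42, 79 and 58 counts in old replicates 1, 3, 4 and 5, and 24, 40, 20, 35 and 31 counts in young replicates 1 to 5. Old replicate 1 lay within the young mice and the other 3 old mice above them. Cxcr4 rose from a mean of 1.69 CPM (range 1.25 to 2.21) to 3.15 CPM (range 1.91 to 4.32, log2 fold change 0.89, standard error 0.23, edgeR adjusted p = 0.017). Without old replicate 4 the adjusted p was 0.071, and without old replicate 5 it was 0.0504. Cx3cr1, the receptor of Cx3cl1 and the most abundant signalling receptor in CPM, went from 32.5 ± 4.64 CPM at 3 months to 37.7 ± 2.12 CPM at 33 months (log2 fold change 0.21, edgeR adjusted p = 0.15). Young replicate 4 had 40.4 CPM of Cx3cr1 and the other young mice 28.5 to 32.1 CPM, and without it Cx3cr1 rose by 0.30 on the log2 scale (edgeR adjusted p = 0.0028). Cx3cr1 is overlapped by Gm33858 on the opposite strand.

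The other receptors of the members were near the detection limit and were compared without the filter, where 3 of 17 receptors with a count were called higher, beside 1.69% of all genes in that fit. Ccr1, which binds Ccl3, Ccl6 and Ccl9, had 11, 7, 9 and 10 counts in old replicates 1, 3, 4 and 5, and 5, 0, 1, 5 and 2 counts in young replicates 1 to 5 (log2 fold change 1.83, standard error 0.50, edgeR adjusted p = 0.0049). Cxcr6 had 11, 11, 7 and 7 counts in these old mice, and 3, 0, 2, 5 and 5 counts in the young mice (log2 fold change 1.60, edgeR adjusted p = 0.017). Leaving out young replicate 2, old replicate 1 or old replicate 3 ended the call of Cxcr6, with edgeR adjusted p of 0.093, 0.053 and 0.093. The third was Cxcr4. Ccr2, the receptor of Ccl2 and Ccl12, had a log2 fold change of 1.12 (edgeR adjusted p = 0.16) from 1 to 7 counts in young and 2 to 18 counts in old mice. Old replicate 4 had the 18 counts. Leaving this mouse out gave Ccr2 a log2 fold change of 0.35 (edgeR adjusted p = 0.82), and leaving out old replicate 1 gave 1.46 (edgeR adjusted p = 0.045). Cxcr3, the receptor of Cxcl10, had 0 to 2 counts in young and 1 to 6 counts in old mice (log2 fold change 1.89, edgeR adjusted p = 0.18).

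Most atypical receptors bind chemokines without G protein signalling, and some of them clear their ligands. All 5 passed the filter, and 0 had an adjusted p under 0.05 by edgeR or DESeq2 (1 at an unadjusted p under 0.05 by edgeR, 0 by DESeq2). Ackr3, which clears Cxcl12, averaged 8.79 ± 0.801 CPM at 3 months and 7.53 ± 0.672 CPM at 33 months (log2 fold change -0.23, edgeR adjusted p = 0.16). Cx3cl1 and Cxcl16 are released from the membrane by the proteases Adam10 and Adam17. Adam10 averaged 95.9 ± 3.61 CPM at 3 months and 98.9 ± 2.37 CPM at 33 months (log2 fold change 0.04, edgeR adjusted p = 0.51), and Adam17, overlapped by Iah1 on the opposite strand, at 21.9 ± 0.695 and 21.4 ± 0.868 CPM (log2 fold change -0.03, edgeR adjusted p = 0.77). In the list of 6 genes of shedding and cleavage, Timp3, an inhibitor of metalloproteases that is overlapped by Syn3 on the opposite strand, rose by 0.35 on the log2 scale (edgeR adjusted p = 0.0010, beside 6.09% of all genes higher at an adjusted p under 0.05) without passing the fold threshold. The other 5 did not pass the test.

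Among 14 genes of NF-kB signalling and its inducing cytokines, 12 were tested, 1 rose and 1 fell at an adjusted p under 0.05 (6.09% and 4.89% of all genes), and 0 passed the fold threshold as well by edgeR or DESeq2 (2 of 12 at an unadjusted p under 0.05 by either tool). Nfkbia, the inhibitor that NF-kB itself induces, rose by 0.35 on the log2 scale from 29.9 ± 2.87 CPM (edgeR adjusted p = 0.0045). Rel, an NF-kB subunit of leukocytes, had a log2 fold change of -0.48 from 8.48 ± 0.640 CPM (edgeR adjusted p = 0.0075). Of 7 genes of the interferon pathway 5 were tested, all 5 with positive log2 fold changes, 3 rose at an adjusted p under 0.05 and 1 was called (6.09% and 2.13% of all genes), while Ifnb1 had no counts. Irf7, the interferon-induced regulator of type I interferon genes, had 77 to 199 counts in the old mice and 22 to 51 counts in the young mice. All old mice were above all young mice, and the log2 fold change was 2.06 (standard error 0.34, edgeR adjusted p = 0.0060). Irf9, a part of the complex that binds interferon response elements, rose by 0.36 on the log2 scale (edgeR adjusted p = 0.0098). Irf7 is overlapped by Phrf1 on the opposite strand and Irf9 by Rnf31 on its own strand.

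**Figure D4:**
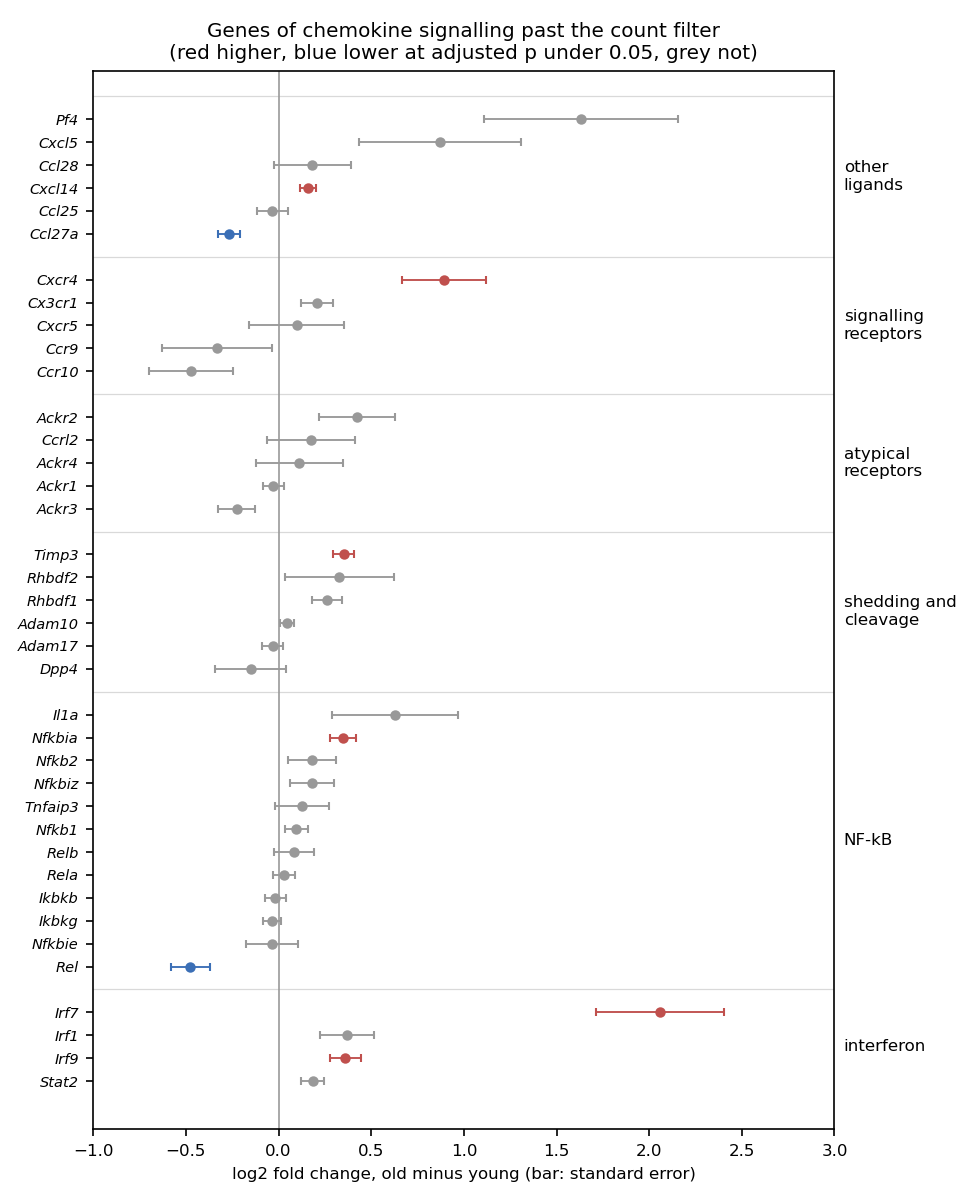
Log2 fold change, old minus young, with standard error as a bar, of genes of 6 lists that passed the filter, with 6 other ligands, 5 signalling receptors, 5 atypical receptors, 6 genes of shedding and cleavage, 12 of NF-kB and 4 of interferon signalling drawn. Red points are higher and blue points lower at an adjusted p under 0.05, and of these, Cxcr4 and Irf7 also exceed a log2 fold change of 0.58.

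Of 28 other chemokine ligands, 6 were tested and 0 were called by edgeR or DESeq2 (3 of 6 at an unadjusted p under 0.05 by either tool). At an adjusted p under 0.05 alone, Cxcl14, a constitutive ligand, rose from 80.9 ± 3.97 CPM to 90.2 ± 4.57 CPM (log2 fold change 0.16, edgeR adjusted p = 0.030). Leaving out any 1 of 5 mice (young replicates 1, 3 and 5, old replicates 1 and 5) put the adjusted p of Cxcl14 between 0.054 and 0.10. Ccl27a fell from 43.6 ± 2.90 CPM to 36.2 ± 3.05 CPM (log2 fold change -0.27, edgeR adjusted p = 0.0094), has near-identical copies in the genome and overlaps Il11ra1. In the fit without the filter, 25 had a count and 3 were called higher, beside 1.69% of all genes in that fit. These were Ccl5, Ccl8 and Pf4, which fall outside the naming rule and were chosen after their values were seen. Ccl8, a CC chemokine whose gene lies beside Ccl12, had 5, 13, 4 and 8 counts in old replicates 1, 3, 4 and 5, and 2 counts in young replicate 1 and 0 in the other 4 young mice (log2 fold change 3.93, standard error 0.75, edgeR adjusted p = 9.9e-06). With a mouse left out its log2 fold change was 3.44 to 5.97, the highest without young replicate 1, when all young mice were at 0. From the summed counts, 30 in old and 2 in young mice, the ratio per library size was 19.5 (95% exact interval 4.94 to 168, counting error only). Ccl5, a chemokine made by T cells and macrophages, had 5 to 12 counts in old and 0 to 6 counts in young mice (log2 fold change 1.82, edgeR adjusted p = 0.0083). Without young replicate 1 or old replicate 4 its adjusted p was 0.060 or 0.058. Pf4 (log2 fold change 1.62, edgeR adjusted p = 6.5e-05) was highest in old replicate 4, with 47 counts against 5 to 17 in the other old mice. Without old replicate 4 its log2 fold change was 0.83 (edgeR adjusted p = 0.29), and in the fit with the filter over all mice its adjusted p was 0.065 (edgeR).

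Transcripts whose pattern over the 9 mice was most like that of a member were sought for the 3 tested members that spanned more than 2 on the log2 CPM scale, by the root mean square difference of centred log2 CPM profiles among 16547 genes. The closest to Ccl3 were Cybb (0.34), a subunit of the phagocyte NADPH oxidase, Gm49339 (0.57) and the Fc receptor gene Fcgr2b (0.58). Young replicate 4 had 6.33 CPM of Cybb, the other young mice had 0.55 to 1.31 CPM and the old mice 4.30 to 6.57 CPM. The closest to Ccl6 were Tlr2 (0.34), a receptor for bacterial lipoproteins, the leukocyte phosphatase gene Ptprc (0.39) and Myo1f (0.42). The closest to Cxcl10 were the interferon-induced Ifi27l2a (0.31), Cd84 (0.33) and Fcgr2b (0.35). Ifi27l2a was at 0.918 CPM in young replicate 4, within the 0.412 to 0.940 CPM of the other young mice, and at 2.39 to 3.56 CPM in the old mice. These values describe likeness and carry no test.

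Markers of the cells that could contribute these transcripts moved with age and with the library, and their part in the chemokine values was not tested. Among all tested genes, 6.09% were higher at an adjusted p under 0.05. Activated microglia markers, with Csf1 the most abundant, had 2 of 7 genes higher at this threshold (Gpnmb and Lgals3). Their sum went from 56.1 ± 25.5 CPM at 3 months to 93.4 ± 10.1 CPM at 33 months (two-sided exact permutation test, adjusted p = 0.079 over 12 lists). Without young replicate 4 all 7 were higher at an adjusted p under 0.05, beside 6.52% of all genes. Of these, Itgax, Clec7a and Cst7 had fewer than 10 counts in each remaining young mouse and passed the filter through the old mice. All 7 were higher without the filter and young replicate 4 too. Homeostatic microglia markers, with Csf1r the most abundant, had 1 of 9 genes higher over all mice, beside 6.09% of all genes. They summed to 176 ± 19.7 CPM at 3 months and 210 ± 22.4 CPM at 33 months (exact permutation test, adjusted p = 0.079), with 207 CPM in young replicate 4. Markers of border macrophages, the macrophages of meninges and vessels, had 5 of 8 genes higher, beside 6.09% of all genes. Stab1 was the most abundant. These markers summed to 29.3 ± 1.72 CPM at 3 months and 41.6 ± 3.68 CPM at 33 months (exact permutation test, adjusted p = 0.024). In young replicate 4 their sum was 32.1 CPM, between the 27.5 to 29.3 CPM of the other young and the 38.0 to 45.7 CPM of the old mice.

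Of 8 markers of monocytes and neutrophils, 3 were tested and 0 had an adjusted p under 0.05 by edgeR or DESeq2 (3 at an unadjusted p under 0.05 by edgeR, 0 by DESeq2), and S100a9 was the most abundant. Without the filter 2 of 8 were called higher (1.69% of all genes), the monocyte genes Ly6c2 (log2 fold change 1.91, edgeR adjusted p = 0.00047) and Plac8 (2.13, edgeR adjusted p = 0.0059), with 36 and 14 counts in old replicate 4, and neither was called without that mouse (log2 fold changes 0.70 and 1.65, edgeR adjusted p = 0.58 and 0.16). Their sum went from 1.85 ± 0.581 CPM at 3 months to 27.5 ± 45.0 CPM at 33 months (exact permutation test, adjusted p = 0.024), with 94.9 CPM in old replicate 4 alone. Without old replicate 4 the difference of the sums was 3.19 CPM, against 25.7 CPM with it. The log2 fold change of Cxcl10 without this mouse was 2.14 and that of Ccl12 2.36. T and NK cell markers summed to 6.32 ± 1.18 CPM at 3 months and 7.28 ± 0.665 CPM at 33 months (exact permutation test, adjusted p = 0.24). Most of this was Cd4 (5.89 and 5.37 CPM), the only one of the 9 genes that passed the filter, with a log2 fold change of -0.13. The other 8 had positive log2 fold changes in the fit without the filter, and 2 of 9 were called higher, beside 1.69% of all genes. These were Cd8a (2.80, edgeR adjusted p = 2.1e-05) and Cd8b1 (2.81, edgeR adjusted p = 0.0082), the chains of the CD8 coreceptor of cytotoxic T cells. Cd8a had 5 to 16 counts in old and 0 to 3 counts in young mice, Cd8b1 2 to 7 and 0 to 2, and without old replicate 4 the adjusted p of Cd8b1 was 0.052 (edgeR). The summed red cell markers (98.9 ± 11.9 and 242 ± 125 CPM, Hbb-bs the most abundant) and endothelial markers (222 ± 5.12 and 262 ± 19.6 CPM, Flt1 the most abundant) were also higher in old brain (exact permutation test, adjusted p = 0.024 for each). Of their genes, 3 of 5 and 4 of 8 were higher at an adjusted p under 0.05, beside 6.09% of all genes. The other 4 endothelial markers had negative log2 fold changes, and Kdr, a VEGF receptor gene, was lower at an adjusted p under 0.05 without young replicate 4 (log2 fold change -0.38, edgeR adjusted p = 0.0094) and without the filter (-0.31, edgeR adjusted p = 0.0019). For red cells the count of higher genes was 0 of 5 without young replicate 4 and 0 of 5 without the filter (edgeR), with 5 of 5 at an unadjusted p under 0.05 in both, and 5 of 5 were higher at an adjusted p under 0.05 by DESeq2 over all mice. Without old replicate 4 the difference of the red cell sums was 87.7 CPM, against 143 CPM with it. No marker was at 0 in every library. The sums of neuronal (adjusted p = 0.095), oligodendrocyte (0.15), mural cell (0.23), astrocyte (0.61) and meningeal fibroblast markers (0.96) did not pass the exact permutation test. Old replicate 4 had 122 CPM of the meningeal fibroblast markers, and the other old mice 42.8 to 62.0 CPM. Without old replicate 4 their difference turned to -14.1 CPM and passed (exact permutation test, adjusted p = 0.043). Of the 7 neuronal markers, 3 were lower in old brain at an adjusted p under 0.05 (4.89% of all genes) and 0 higher. The counts were the same without young replicate 4. The 3 lower genes are named next. They were Stmn2, Tubb3 and Map2, genes of the neuronal cytoskeleton, with log2 fold changes of -0.27, -0.22 and -0.14 (edgeR adjusted p = 0.00096, 0.0025 and 0.026). A positive log2 fold change was found for 1 of the 7 neuronal markers. Snap25, the most abundant of them, averaged 2022 CPM at 3 months and 1968 CPM at 33 months. Of the other lists, 2 of 6 oligodendrocyte and 2 of 5 mural cell markers were higher at this threshold (6.09% of all genes). Lower were 1 of 6 oligodendrocyte and 1 of 5 meningeal fibroblast markers (4.89% of all genes). By edgeR, 0 of 7 astrocyte markers had an adjusted p under 0.05 (2 at an unadjusted p under 0.05, and 2 at an adjusted p under 0.05 by DESeq2). With 5 mice against 4 the smallest p the exact permutation test can give is 0.00794, before adjustment.

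**Figure D5:**
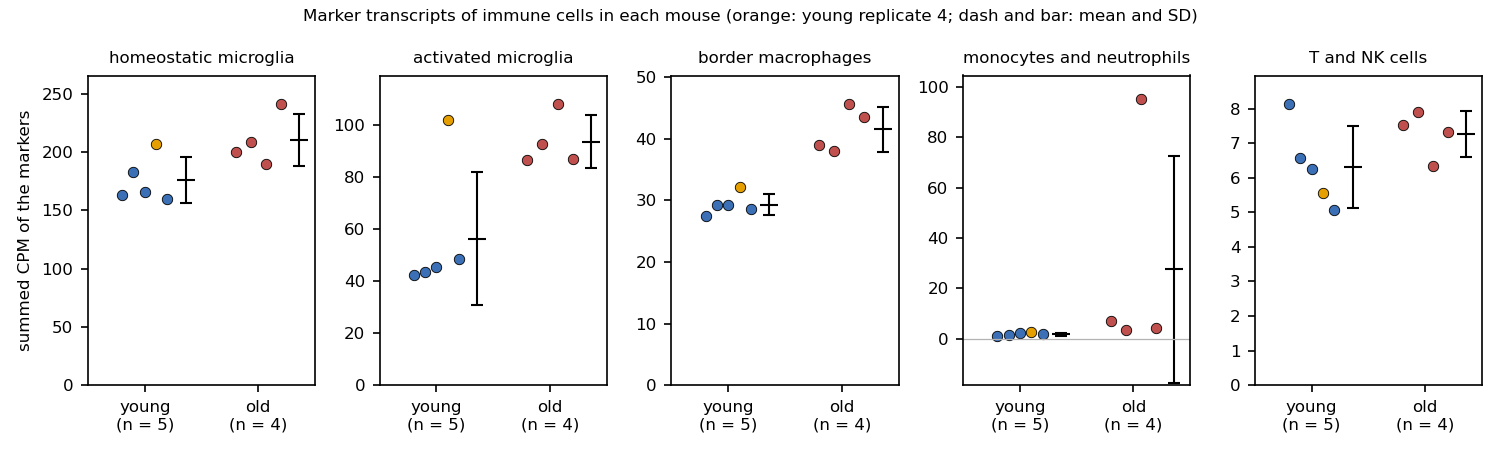
Summed CPM of the markers of 5 immune cell lists in each mouse, 5 young (blue, young replicate 4 in orange) and 4 old (red), with the mean and SD of each age. Young replicate 4 lies with the old mice for activated microglia (102 CPM) and below them for border macrophages (32.1 CPM), and old replicate 4 reaches 94.9 CPM for monocytes and neutrophils.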

How the data were processed

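RNA-seq libraries of 5 young and 4 old mouse brains were analysed. According to the study's methods, reads were trimmed with Trimmomatic, aligned to GRCm38 (Ensembl) with STAR and counted in exons with featureCounts, using unique reads. The authors deposited whole-number counts per Ensembl gene, normalized counts of 17994 genes (a signal, the counts of each library divided by 1 size factor) and TPM, all without spike-in rows. Of the columns of per-sample values, 3 (1 in each table) matched no sample used here and were left out. Whether counting used strand is not given in the sources used here. TPM keeps no depth, and the lengths behind it are not given.

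From the counts, edgeR 4.0.16 (R 4.3.3) filtered genes (filterByExpr, minimum count 10, minimum total 15), scaled libraries by TMM and compared old with young mice by robust quasi-likelihood tests with Benjamini-Hochberg adjustment over all genes tested. Libraries of an age differed by more than the sampling noise (chi-square per degree of freedom at least 3.71). On simulated counts of 18194 genes, 200 of them changed by a log2 fold change of 1, the test called 91% of these, unchanged genes made up 2.15% of the calls, and 0 genes were called when none was changed. Alternatives were DESeq2 1.42.0 size factors and Wald test, no filter, a CPM filter, limma 3.58.1 on log2 TPM (pseudocounts 1 and 0.1) and on log2 normalized counts, a replicate block and each mouse left out. The non-robust fit and the unfiltered fit without young replicate 4 were added after seeing the data. Marker sums were compared by exact permutation over all splits of the mice. Symbols and positions came from a GRCm38 annotation and promoters from RefSeq.

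Genes named were the members, genes of the lists with an adjusted p under 0.05, the members' receptors (Cx3cr1, Cxcr4, Ackr3, Ccr2, Cxcr3, Cxcr6), Adam10 and Adam17, and the 3 genes most like each variable member. Members and lists were chosen with earlier results of these data known, and other named genes after their values were seen. A few genes that the rule covers are not reported here.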

Additional observations from a re-analysis of the deposited data

Results flagged for a closer look

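In 44 combinations of a value and an age group, 6 had a highest or lowest mouse far from the others by Dixon's ratio of its gap to the range of the group, where chance gives about 1 in 20, or 2.2. Of the 6, 5 came from young replicate 4. On the log2 CPM scale this mouse was at -0.023 for Ccl4 (other young -3.12 to -2.45, ratio 0.782), at 2.31 for Ccl6 (-0.71 to 0.012, ratio 0.761) and at 1.83 for Cxcl16 (0.56 to 0.84, ratio 0.780). Its summed markers were 102 CPM for activated microglia (other young 42.2 to 48.6 CPM, ratio 0.893) and 4509 CPM for astrocytes (4122 to 4229 CPM, ratio 0.723). In old replicate 4 the summed markers of monocytes and neutrophils were 94.9 CPM (other old 3.67 to 7.01 CPM, ratio 0.963). What set these mice apart was not tested.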

How the results depend on the processing

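Of all genes, 463 were called, 707 without the filter, 833 without the filter and young replicate 4, 2031 by adjusted p alone and 379 to 592 with a mouse left out. Of the chemokine members, 1 was called, 3 without the filter, 6 without the filter and young replicate 4, 2 by adjusted p alone, 1 to 4 with a mouse left out, and 0 by DESeq2's Wald test, where 4 of 7 had an unadjusted p under 0.05. Calls without the filter were 3 for other ligands and 3 for signalling receptors. Calls by adjusted p alone were 2 for other ligands, 1 for proteases, 2 for NF-kB genes and 3 for interferon genes. With a mouse left out, other ligands gave 0 to 1 and receptors 0 to 1 calls. Cxcl12 turned to -0.0019 on log2(TPM + 1) and -0.00039 on log2(TPM + 0.1), where TPM shifted all genes by -0.14 and -0.16. Over all alternatives Cxcl10 kept a log2 fold change of 0.81 to 2.70 and, where defined, an adjusted p no higher than 0.0043.

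With a mouse left out, the old minus young difference in summed CPM was 10.8 to 13.4 for border macrophages, 3.19 to 33.6 for monocytes and neutrophils, 87.7 to 181 for red cells, 32.2 to 46.4 for endothelium and -14.1 to 12.3 for meningeal fibroblasts. Fewer mice allow fewer splits, which raises the smallest p. By the mean log2 CPM of the markers, T and NK cells (0.85), neurons (-0.12) and mural cells (0.17) passed, and meningeal fibroblasts reversed to -0.21.

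Replicate numbers did not pair the mice (correlation of deviations between same-numbered mice 0.17, -0.12, 0.088 and -0.024). With the replicate number as a block, 437 genes and 1 member were called, and Cxcr6 had an adjusted p of 0.11 (edgeR).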

Other observations

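Some chemokine ligands outside the members stood out in single mice and were chosen after their values were seen. Cxcl1, a ligand that draws neutrophils, had 51 counts in young replicate 4, 1 to 11 counts in the other young and 2 to 4 counts in the old mice. Cxcl13, which guides B cells, had 96 counts in old replicate 1, against 2, 7 and 6 counts in old replicates 3, 4 and 5 and 0 to 1 counts in the young mice. Ppbp, a platelet chemokine, had 127 counts in old replicate 4, the mouse with the high monocyte and neutrophil markers, against 15, 3 and 8 counts in old replicates 1, 3 and 5 and 0 to 6 counts in the young mice. These values have no test beyond the fit without the filter, in which the edgeR adjusted p was 0.34 for Cxcl1, 0.14 for Cxcl13 and 0.21 for Ppbp.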
